A study of Mus musculus with 6 samples.

Results

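The regions described here are those that the deposited annotation places in a 5' UTR, the transcribed leader between a gene's transcription start site (TSS) and its start codon. They were taken from 4 tables of a CUT&Tag study of primary mouse cardiac fibroblasts by the wording of the annotation alone, and numbered 5472 of the 456310 regions listed. By table they were 1908 of 170890 regions for TGF-b over NC and 1825 of 180118 for siRNA over TGF-b in the T set, and 715 of 52723 and 1024 of 52579 for the same contrasts in the S set. A region present in several tables was counted in each.

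Each of the 6 libraries was 1 preparation of cultured cells from mouse heart. The T set held a library labelled NC, a library of cells given TGF-b, and a library of cells given TGF-b and an siRNA that the label names SiTAZ. The S set held the matching NC and TGF-b libraries and one of cells given TGF-b and an siRNA labelled SiSRF. The labels do not spell out NC and give no strain, age, genotype, dose, time or antibody. The study profiled TAZ and SRF, so T is read as TAZ and S as SRF, and because its text has Piezo2 as the siRNA target, that target was left unsettled. The series' design text speaks of Tet3 knockout by a Cre virus, which no label of these libraries mentions. With 1 library per group there was no test of a treatment. The interval of a region's ratio covers counting error only. The interval of a share treats regions as independent draws, which they are not, and holds no spread between libraries.

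TGF-b is the cytokine that drives resident cardiac fibroblasts towards the contractile, matrix-secreting myofibroblast. TAZ, encoded by Wwtr1, has no DNA-binding domain of its own and reaches chromatin mainly through TEAD factors. SRF binds the CArG box and works with actin-regulated MRTF or with ternary complex factors that respond to MAP kinase signalling. CUT&Tag tethers a transposase to the antibody's target, so that reads gather around its sites on DNA. A 5' UTR region in these tables therefore measures chromatin next to a promoter, not the leader RNA or its translation.

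The regions lay against the start of the gene they were assigned to, and their coordinates are those of GRCm39, whereas promoter sequences are placed on GRCm38.p6. The median distance from region centre to TSS was 42 bp and 43 bp downstream in the T set tables (TGF-b over NC, then siRNA over TGF-b) and 41 bp and 37 bp in the S set tables. Between 95.5% and 97.9% of them were centred within 1 kb of the TSS, and the region itself spanned the TSS in 63.6% and 62.8% of T set cases and in 74.0% and 72.4% of S set cases. Median widths were 146 bp in both T set tables, 203 bp for TGF-b over NC and 169.5 bp for siRNA over TGF-b in the S set.

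Promoters of some of these genes carry the binding motifs of the factors under study. RefSeq promoter sequences (from 250 bases before to 50 after a TSS) were matched by symbol to 38 of the 49 genes selected for their ratio or density, giving 58 promoters. The TEAD core GGAATG, searched on both strands, was present in 14.7% of all 32851 RefSeq promoters and a CArG box in 1.63%. Of the 58 promoters 7 (12.1%) held the TEAD core and 1 (1.72%) a CArG box. Nothing is read from a comparison of these shares, because fewer than 80% of the selected genes matched a promoter. The 30 bases around the matches are shown for genes described below that hold one, 5' to 3' on the strand of the gene, with the motif in capitals, since these letters are the ones TEAD factors and SRF recognise. Lamtor4 (chr5:138255300-138255329, plus strand) carried the CArG box, and Lactb (chr9:66975705-66975734, minus strand), Insyn2a (chr7:134938474-134938503, minus strand), Alg8 (chr7:97371623-97371652, plus strand), Nck1 (chr9:100546212-100546241, minus strand), Ptchd3 (chr11:121830070-121830099, plus strand) and Yif1b (chr7:29238333-29238362, plus strand) carried the TEAD core, which reads CATTCC where it lies on the opposite strand. The Amotl2, Acta2 and Tpm1 promoters (chr9:102717727-102717756, plus strand; chr19:34255502-34255531, minus strand; chr9:67049252-67049281, minus strand) are shown because these are listed YAP/TAZ or SRF targets with a 5' UTR region, and Fhl2 (chr1:43163973-43164002, minus strand) and Fermt2 (chr14:45530250-45530279, minus strand) for their CArG boxes. Another promoter of Fhl2 held a further CArG box, not shown. Psmd8 (chr7:29180762-29180791, minus strand) carried the TEAD core. A match describes letters in the sequence and is not evidence of a bound site.
Lamtor4: tcattcatagCCATATTTGGgccgatccac
Fhl2: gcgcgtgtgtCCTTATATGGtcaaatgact
Fermt2: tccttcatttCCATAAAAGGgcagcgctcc
Lactb: tagagggaGGAATGtgggatgcgagagaaa
Insyn2a: tcagaaaccctaGGAATGtggctgaggagc
Alg8: gacgggactccaGGAATGgcggcgtccggg
Nck1: cccggagcggcgCATTCCgctgaagcgtca
Ptchd3: acaggggtagagGGAATGcgccataggcgg
Yif1b: accgggcgggccCATTCCaaactgcggctg
Amotl2: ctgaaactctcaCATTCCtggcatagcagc
Acta2: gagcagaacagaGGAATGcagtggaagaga
Tpm1: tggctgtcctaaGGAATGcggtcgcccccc
Psmd8: ccttaagatggaCATTCCacaggccgaagc

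The deposited normalized read density is (reads + 1) per 2 kb window around the region, expressed per kb and adjusted by the authors along a line so that regions called in both libraries of a table centre on a ratio of 1. Whole reads were recovered from it for every 5' UTR region. The first comparison asked how density at these sites in the TGF-b library stood against NC in the T set. The median 5' UTR region held 17 reads in NC and 20 in TGF-b, at densities of 8.65 and 10.8, whereas the median of all regions held 9 and 5 reads. The log2 ratio of TGF-b over NC had a median of 0.30 (quartiles -0.40 and 1.02) at 5' UTR regions, of 0.16 at promoter regions within 1 kb, of -0.53 at exon regions and of -0.65 over all regions. The 5' UTR regions were thus on the opposite side of 0 from the table as a whole. Of the 1908 regions, 494 (25.9%, Wilson 95% interval 24.0% to 27.9%) were at least 2-fold higher in TGF-b, beside 17.3% of all regions. A further 224 (11.7%, 10.4% to 13.3%) were at least 2-fold lower, beside 42.1% of all regions. Centred on the median of all regions, 905 were higher and 118 lower.

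The siRNA library of the T set was then set against its TGF-b library. Here the median 5' UTR region held 21 reads in TGF-b and 11 with siRNA, and all regions held 5 and 6. The median log2 ratio was -0.30 (quartiles -1.13 and 0.47) at 5' UTR regions, -0.08 at promoter regions within 1 kb, 0.81 at exon regions and 0.97 over all regions. At least 2-fold higher densities with siRNA were seen at 269 regions (14.7%, 13.2% to 16.4%), beside 49.7% of all regions. At least 2-fold lower densities were seen at 516 (28.3%, 26.3% to 30.4%), beside 16.2%. Centring gave 92 higher and 1101 lower, and leaving out the authors' line 177 and 784. Both T set comparisons use the same TGF-b library, so a chance excess of reads there would raise one ratio and depress the other.

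In the S set, the median 5' UTR region held 9 reads in NC and 19 in TGF-b, against 8 and 10 over all regions. The median log2 ratio of TGF-b over NC was 0.45 (quartiles -0.12 and 1.06), with 0.36 at promoter regions within 1 kb, 0.03 at exon regions and -0.20 over all regions. At least 2-fold higher densities were found at 202 of 715 regions (28.3%, 25.1% to 31.7%), beside 17.4% of all regions, and at least 2-fold lower ones at 40 (5.59%, 4.14% to 7.53%), beside 26.7%. Without the authors' line 387 were higher and 17 lower, and the median was 1.0 at 5' UTR regions and 0.36 over all regions, so that both then lay above 0. With siRNA against TGF-b the median 5' UTR region held 17.5 and 17 reads and the median log2 ratio was -0.01 (quartiles -0.58 and 0.62), or 0.20 when centred on the median of all regions. It was 0.13 at promoter regions, -0.31 at exon regions and -0.21 over all. The counts were 124 of 1024 regions higher (12.1%, 10.3% to 14.3%), beside 15.1% of all regions, and 115 lower (11.2%, 9.44% to 13.3%), beside 27.8%. Centred on the median of all regions, 193 were higher and 92 lower. The S set comparisons also share 1 TGF-b library.

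**Figure D1:**
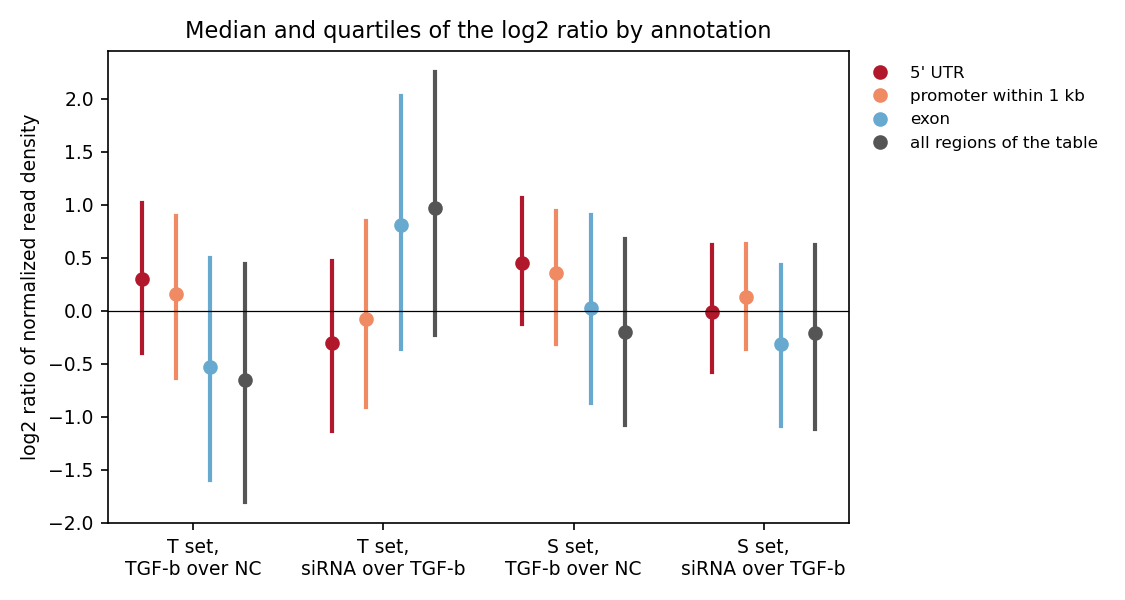
Median (point) and quartiles (line) of the log2 ratio of normalized read density in each comparison, for 5' UTR regions, promoter regions within 1 kb, exon regions and all regions. The 5' UTR medians of 0.30 and 0.45 for TGF-b over NC lie above 0 where all regions lie at -0.65 and -0.20 (0.36 in the S set without the authors' line), and for siRNA over TGF-b in the T set they lie at -0.30 against 0.97.

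Depth differed between 5' UTR regions and the rest, so regions with 30 or more reads in both libraries together were also compared. These were 62.6%, 54.2%, 47.7% and 61.5% of 5' UTR regions, in the order T set TGF-b over NC, T set siRNA over TGF-b, S set TGF-b over NC and S set siRNA over TGF-b, and 16.7%, 10.7%, 13.7% and 16.9% of all regions. At this depth the 5' UTR medians were 0.31, -0.35, 0.53 and -0.01, and those of all regions -0.43, 0.25, 0.13 and -0.16. For TGF-b over NC in the T set, 22.8% of the 5' UTR regions were at least 2-fold higher and 6.45% lower, beside 10.1% and 32.1% of all regions of this depth. With siRNA in the T set, 7.99% were higher and 24.2% lower, beside 28.7% and 13.8%. S set regions of this depth were higher in 28.2% of cases and lower in 0.88% with TGF-b, beside 15.2% and 9.75%, and 6.98% were higher and 7.94% lower with siRNA, beside 6.5% and 16.7%. The medians of promoter regions within 1 kb at this depth were 0.29, -0.25, 0.46 and 0.11, close to those of 5' UTR regions. The shares of 5' UTR regions and of the table thus also stood apart among deeper regions, except the higher share of the S set siRNA table.

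Regions called in a single library had medians on the side of that library. Of the 5' UTR regions in the T set, 38.9% were called in NC only, 24.3% in both and 36.8% in TGF-b only, whereas of all regions 68.9% were called in NC only, 5.42% in both and 25.7% in TGF-b only. In the siRNA table, 41.5% of 5' UTR regions were called in TGF-b only, 22.4% in both and 36.1% with siRNA only, beside 25.3%, 4.21% and 70.5% of all. The S set had 22.1%, 9.23% and 68.7% called in NC only, both and TGF-b only, beside 50.9%, 2.19% and 46.9%. With siRNA the S set shares were 32.7% in TGF-b only, 21.7% in both and 45.6% with siRNA only, beside 45.3%, 3.9% and 50.8%. Calling in both libraries was thus more frequent at 5' UTR regions than over each table, and it was not particular to them, since the shares at promoter regions within 1 kb were 26.2%, 23.8%, 13.2% and 23.7%.

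Regions called in both libraries are the ones the authors' line centres on 0, and over all such regions the medians were 0.00, 0.00, 0.01 and -0.01. At the 5' UTR regions called in both they were 0.30 (n = 463) and -0.33 (n = 408) for T set regions and 0.36 (n = 66) and -0.02 (n = 222) for S set regions. The 5' UTR regions called in the first library only had medians of -0.38, -1.10, -0.39 and -0.72, and those called in the second only of 1.01, 0.54, 0.75 and 0.51. The corresponding medians over all regions were -1.27, -1.42, -1.02 and -1.19, and 1.41, 1.62, 0.70 and 0.54. At single regions the calls did not always go with the reads. In the T set, 61 of the 742 regions called in NC only were at least 2-fold higher in TGF-b, and 42 of the 659 called with siRNA only were at least 2-fold lower with siRNA. A region called in 1 library tended to be denser there by the way it was chosen, so these values describe the mix and carry no support of their own.

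**Figure D2:**
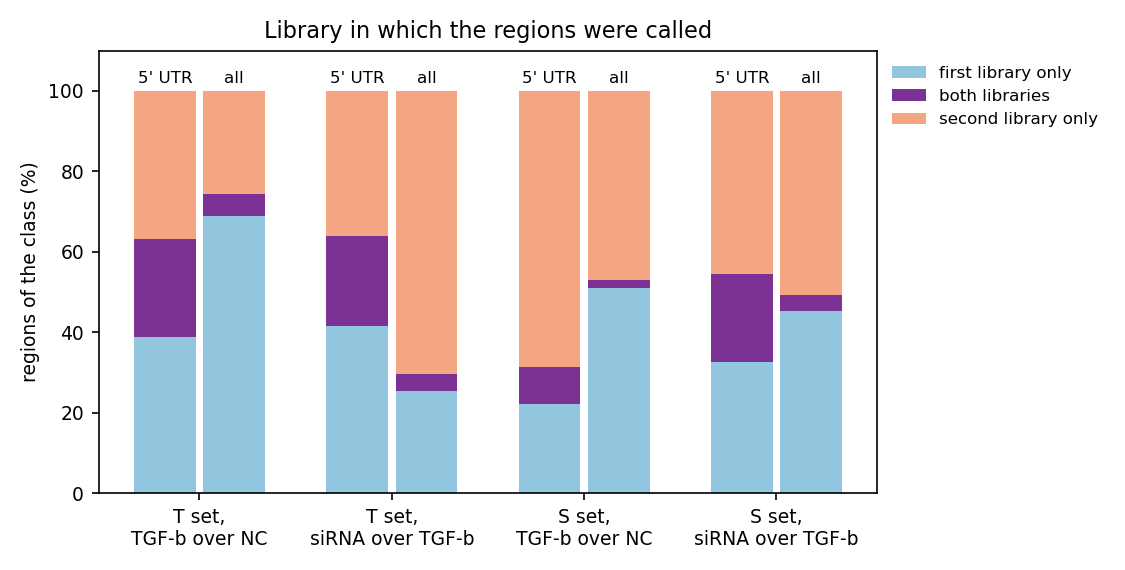
Share of regions (%) called in the first library of a comparison only, in both, or in the second only, for 5' UTR regions and for all regions of each table. Calls in both libraries make up 24.3%, 22.4%, 9.23% and 21.7% of 5' UTR regions and 5.42%, 4.21%, 2.19% and 3.9% of all regions.

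The ratio was not uniform along the distance to the TSS. For TGF-b over NC in the T set, the median was 0.39 for the 1021 regions centred under 50 bp from the TSS, 0.27 at 50 to 99 bp (n = 347), 0.26 at 100 to 249 bp (n = 322) and 0.13 at 250 to 999 bp (n = 142). The 76 regions centred 1 kb or more away, in the leader of a gene whose listed start is elsewhere, had a median of -0.71, close to the -0.65 of all regions. Their median reads were 11 in NC and 5 in TGF-b, lower than the 17 and 23 of the nearest group. The corresponding T set medians of siRNA over TGF-b were -0.47 (n = 958), -0.20 (n = 348), -0.28 (n = 298), -0.13 (n = 138) and 0.77 for the 83 far regions, beside 0.97 over all regions.

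TGF-b over NC in the S set had medians of 0.45 (n = 389), 0.48 (n = 144), 0.53 (n = 120) and 0.22 (n = 43) from the nearest group outwards, and -0.35 in the 19 far regions, too few to carry a trend. The siRNA table of this set had medians of 0.09 (n = 581), -0.09 (n = 206), -0.10 (n = 158), 0.04 (n = 57) and -0.23 (n = 22). The far regions are a small minority, and the values of the 5' UTR regions as a whole are those of windows at the TSS.

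**Figure D3:**
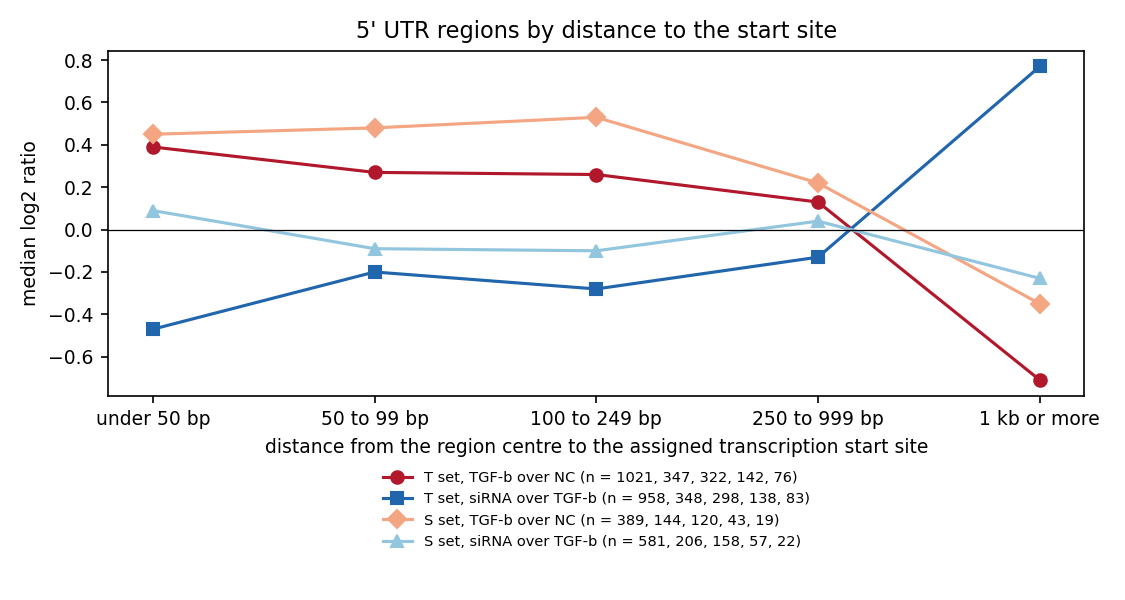
Median log2 ratio of 5' UTR regions by the distance between region centre and assigned TSS, with 1 line per comparison and the number of regions per distance in the key. In the T set the medians near the TSS (0.39 and -0.47) and 1 kb or more away (-0.71 and 0.77) lie on opposite sides of 0.

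At the level of genes, 5' UTR regions were assigned to 3126 genes, 2354 of them in T set tables and 1124 in S set tables. Both sets held 352 of them, 15.0% of the T set genes and 31.3% of the S set genes, and 139 had a 5' UTR region in all 4 tables. A promoter region within 1 kb was listed as well for 1699 (54.4%). The matching shares over all genes with a region were not counted, so nothing is read from these numbers. Most genes had 1 region in a 5' UTR, and in the T set table of TGF-b over NC 81 genes had several, which together account for 162 regions. Neighbouring windows of 2 kb share reads, so regions of 1 gene were not independent.

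The densest 5' UTR regions of the T set were dense in each of the 3 libraries. Gins2 (ENSMUSG00000031821, chr8:121315796-121316237), a subunit of the replicative helicase's GINS complex, held 153 NC reads, 161 TGF-b reads and 161 reads with siRNA, at log2 ratios of -0.06 (interval -0.38 to 0.26) and 0.50 (0.19 to 0.81). Equal reads give a ratio above 0 in the second comparison because the authors' line raises the siRNA densities, and the ratio was 0.00 without the line and -0.47 when centred on all regions. Mesd (chr7:83540915-83541514), a chaperone of Wnt coreceptors, held 133, 142 and 105 reads. Slc35f5 (chr1:125487936-125488790) held 119, 136 and 85 reads. Pwwp3a (chr10:80062146-80062492), a chromatin protein with a PWWP domain, held 104, 158 and 84, with log2 ratios of 0.48 (0.13 to 0.84) and -0.41 (-0.80 to -0.04). Usp5 (chr6:124806338-124806521), which takes apart free ubiquitin chains, held 100, 142 and 63, with ratios of 0.39 (0.03 to 0.77) and -0.67 (-1.11 to -0.25). The intervals of Pwwp3a and Usp5 thus exclude 0 in both comparisons, and those of Mesd and Slc35f5 in neither. When centred on all regions, the ratios were 1.14 and -1.38 for Pwwp3a and 1.05 and -1.64 for Usp5, past 2-fold in both comparisons. The centred ratios were 0.62 and -0.91 for Mesd and 0.73 and -1.15 for Slc35f5. Their intervals, moved alike, then exclude 0 in both comparisons as well.

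In the S set the densest was a region on the unplaced scaffold JH584304.1 (59003 to 59078) assigned to ENSMUSG00000095041, with 76 reads in TGF-b and 151 with siRNA and a log2 ratio of 0.94 (0.55 to 1.34). Sequence of such scaffolds can occur in several copies, so the source of these reads is uncertain. The transcription factor gene Sp4 (chr12:118265084-118265213) held 94 and 95 reads, Fkbp2 (chr19:6957799-6957886), for a peptidyl-prolyl isomerase of the endoplasmic reticulum, 59 and 69, and Fhip1b (chr7:105049199-105049317) 59 and 66, all 3 listed only in the siRNA table with intervals that include 0. Rxylt1 (chr10:121932973-121933460), which acts in the glycosylation of dystroglycan, held 30 NC reads, 74 TGF-b reads and 91 reads with siRNA. Its log2 ratio was 0.76 (0.18 to 1.39) for TGF-b over NC and 0.27 (-0.17 to 0.71) for siRNA over TGF-b. The densest genes of a set were ranked by mean log2 density over the tables that list them. Those of the siRNA table alone were thus ranked without values of the NC library.

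Genes were then named by the size of their ratio among regions with 30 or more reads. A gene picked for an extreme ratio owes part of it to chance, so the values are a description. In the T set, the highest ratios of TGF-b over NC were at windows with 1 to 4 reads in NC. Lamtor4 (ENSMUSG00000050552, chr5:138253787-138254172), a subunit of the Ragulator complex that anchors mTORC1 signalling to lysosomes, held 1 read in NC against 45 in TGF-b (log2 ratio 4.64, interval 3.09 to 8.14). Cad (ENSMUSG00000013629, chr5:31212070-31212296), the enzyme of the first steps of pyrimidine synthesis, held 1 read in NC against 35 in TGF-b (log2 ratio 4.3, interval 2.73 to 7.79). Agtpbp1 (ENSMUSG00000021557, chr13:59732874-59733042), a carboxypeptidase that trims glutamates from tubulin, held 4 reads in NC against 44 in TGF-b (log2 ratio 3.25, interval 2.12 to 4.96). The size of each ratio rests on the few reads in NC. Dnajb4 (ENSMUSG00000028035, chr3:151899364-151899554), an Hsp40 cochaperone, held 3 reads in NC against 33 in TGF-b (log2 ratio 3.19, interval 1.94 to 5.18). Gga3 (ENSMUSG00000020740, chr11:115494617-115494808), a clathrin adaptor of the trans-Golgi network, held 3 reads in NC against 30 in TGF-b (log2 ratio 3.06, interval 1.8 to 5.05).

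The same regions were listed in the siRNA table, and the TGF-b reads there are the same reads. Lamtor4 held 14 reads with siRNA, a log2 ratio over TGF-b of -1.14 (-2.06 to -0.36), and Agtpbp1 held 7, at -2.02 (-3.31 to -1.06). Dnajb4 held 1 read, at -3.63 (-7.12 to -2.06), so that NC and siRNA were both near 0 and TGF-b stood alone. Cad held 16 reads (-0.61, -1.5 to 0.18) and Gga3 13 (-0.68, -1.66 to 0.19), and both intervals include 0. Centring lowers each ratio of this contrast by the 0.97 of all regions, and both intervals then lie below 0.

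The lowest ratios in this comparison were all at regions called in NC only. S1pr4 (ENSMUSG00000044199, chr10:81335678-81335792), a sphingosine 1-phosphate receptor known mainly from lymphoid cells, held 39 reads in NC against 2 in TGF-b (log2 ratio -3.63, interval -6.08 to -2.27). Plekhb1 (ENSMUSG00000030701, chr7:100307496-100307758) held 37 reads in NC against 2 in TGF-b (log2 ratio -3.55, interval -6.01 to -2.19). Dctn1 (ENSMUSG00000031865, chr6:83156654-83156935), the large dynactin subunit that helps dynein hold microtubules, held 36 reads in NC against 5 in TGF-b (log2 ratio -2.54, interval -4.07 to -1.46). The other two were Prickle2 (ENSMUSG00000030020, chr6:92458038-92458211), of the planar cell polarity pathway, which held 32 reads in NC against 5 in TGF-b (log2 ratio -2.37, interval -3.91 to -1.28), and Zfp148 (ENSMUSG00000022811, chr16:33220809-33220900), a zinc finger factor of GC-rich promoters, which held 26 reads in NC against 4 in TGF-b (log2 ratio -2.33, interval -4.05 to -1.14). None of the 5 was listed at a 5' UTR region of the siRNA table.

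The lowest T set ratios of siRNA over TGF-b belonged to windows that were well filled in TGF-b and close to empty with siRNA. Tbpl1 (ENSMUSG00000071359, chr10:22607266-22607416), a relative of the TATA-binding protein, held 47 reads in TGF-b and 0 with siRNA, at least 8.76-fold lower against a floor of 3 reads in the siRNA library. Lactb (ENSMUSG00000032370, chr9:66882655-66882838), a mitochondrial protein related to bacterial beta-lactamases, held 39 and 0 reads, at least 7.31-fold lower. Mmp24os1 (ENSMUSG00000074649, chr2:155661009-155661269), a transcript on the strand opposite Mmp24, held 63 reads in TGF-b against 1 in TGF-b with siRNA (log2 ratio -4.54, interval -8.03 to -3.0). The reads are of DNA and carry no strand of a transcript, so those of the overlapping locus cannot be told apart. Serp1 (ENSMUSG00000027808, chr3:58433142-58433421), a stress-associated protein of the endoplasmic reticulum, held 47 reads in TGF-b against 1 in TGF-b with siRNA (log2 ratio -4.13, interval -7.62 to -2.57). Dap (ENSMUSG00000039168, chr15:31224395-31224600), death-associated protein, held 70 reads in TGF-b against 2 in TGF-b with siRNA (log2 ratio -4.1, interval -6.55 to -2.78). In NC these 5 regions held 10, 12, 34, 20 and 30 reads, so the siRNA library was below NC as well at each, and TGF-b was the highest of the 3 libraries.

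The highest ratios were at regions called with siRNA only. Insyn2a (ENSMUSG00000073805, chr7:134539573-134539641), of inhibitory synapses, held 6 reads in TGF-b against 44 in TGF-b with siRNA (log2 ratio 3.15, interval 2.15 to 4.54). Tff1 (ENSMUSG00000024032, chr17:31384143-31384255), a trefoil peptide of gastric mucus, held 5 reads in TGF-b against 32 in TGF-b with siRNA (log2 ratio 2.92, interval 1.83 to 4.46). Adra2b (ENSMUSG00000058620, chr2:127205304-127205424), the alpha-2B adrenergic receptor, held 6 reads in TGF-b against 28 in TGF-b with siRNA (log2 ratio 2.51, interval 1.45 to 3.92). These genes are known from tissues other than the heart's fibroblasts. Mapk3 (ENSMUSG00000063065, chr7:126358757-126358825), which encodes ERK1, held 11 reads in TGF-b against 40 in TGF-b with siRNA (log2 ratio 2.24, interval 1.39 to 3.28), and stood at 1.27 when centred.

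**Figure D4:**
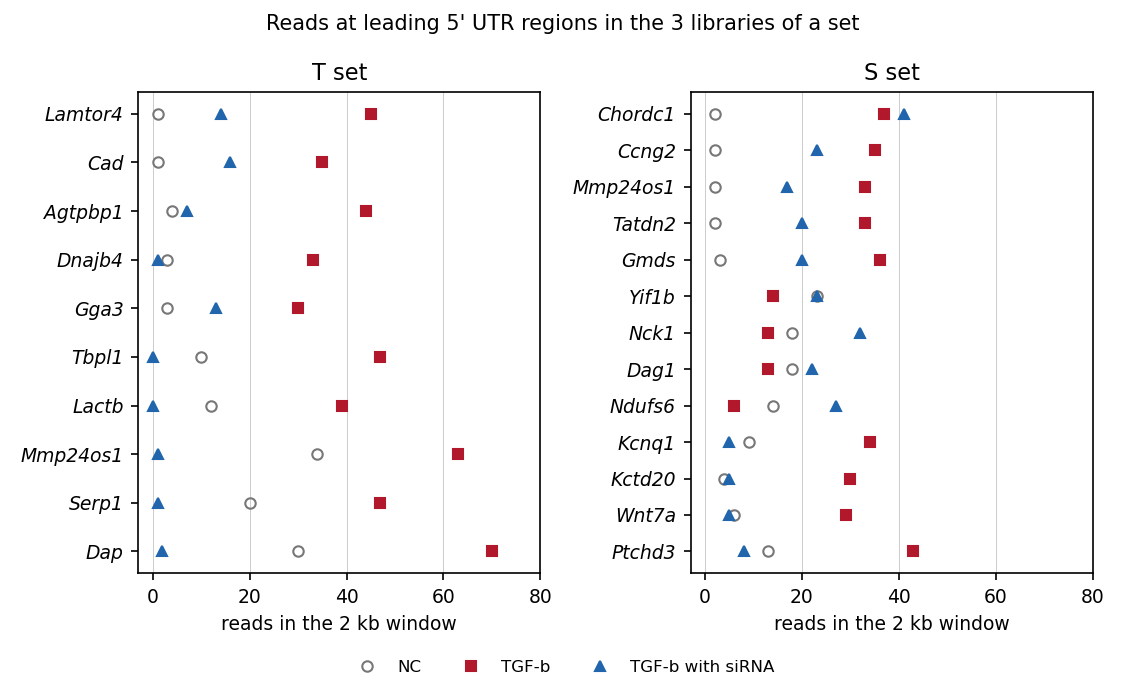
Reads in the 2 kb window of the leading 5' UTR regions that were listed in both tables of a set, with NC, TGF-b and siRNA libraries as separate points. In the T set the TGF-b library holds the most reads at all 10 regions shown, from 30 at Gga3 to 70 at Dap, and in the S set it holds the fewest at Yif1b, Nck1, Dag1 and Ndufs6.

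In the S set, the highest ratios of TGF-b over NC were at windows with 2 or 3 reads in NC. Chordc1 (ENSMUSG00000001774, chr9:18203262-18203644), an Hsp90 cochaperone, held 2 reads in NC against 37 in TGF-b (log2 ratio 3.09, interval 1.72 to 5.54), and 41 reads with siRNA. Ccng2 (ENSMUSG00000029385, chr5:93415131-93415404), cyclin G2, held 2 reads in NC against 35 in TGF-b (log2 ratio 3.01, interval 1.64 to 5.47), and 23 with siRNA. Mmp24os1 (ENSMUSG00000074649, chr2:155661102-155661474) held 2 reads in NC against 33 in TGF-b (log2 ratio 2.92, interval 1.55 to 5.38), and 17 with siRNA, a log2 ratio over TGF-b of -0.87 (-1.74 to -0.08). Tatdn2 (ENSMUSG00000056952, chr6:113673938-113674140), of the TatD nuclease family, held 2 reads in NC against 33 in TGF-b (log2 ratio 2.92, interval 1.55 to 5.38), and 20 with siRNA. Gmds (ENSMUSG00000038372, chr13:32522583-32522835), which makes the precursor of GDP-fucose, held 3 reads in NC against 36 in TGF-b (log2 ratio 2.64, interval 1.4 to 4.63), and 20 with siRNA, a ratio of -0.78 (-1.59 to -0.03). Against TGF-b, the siRNA intervals of Chordc1, Ccng2 and Tatdn2 include 0.

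Regions with lower density in TGF-b were few and shallow. Heatr1 (ENSMUSG00000050244, chr13:12410201-12410330), a ribosome biogenesis factor, held 31 reads in NC against 15 in TGF-b (log2 ratio -1.55, interval -2.47 to -0.72). Scn9a (ENSMUSG00000075316, chr2:66465154-66465276), a neuronal sodium channel, held 20 reads in NC against 12 in TGF-b (log2 ratio -1.25, interval -2.31 to -0.28). Yif1b (ENSMUSG00000030588, chr7:28937568-28937945), of transport between endoplasmic reticulum and Golgi, held 23 reads in NC against 14 in TGF-b (log2 ratio -1.23, interval -2.21 to -0.33). Nck1 (ENSMUSG00000032475, chr9:100428022-100428317), an adaptor between receptor tyrosine kinases and actin, and Dag1 (ENSMUSG00000039952, chr9:108141037-108141195), dystroglycan, each held 18 reads in NC against 13 in TGF-b (log2 ratio -1.0, interval -2.04 to -0.02 for either). With siRNA, Yif1b held 23 reads, Nck1 32 and Dag1 22, and the interval of the ratio over TGF-b excluded 0 for Nck1 only (1.29, 0.44 to 2.27). In reads alone these differences are small, and the authors' line lowers the TGF-b densities of this table. Without it the ratios were -1.0 for Heatr1, -0.69 for Scn9a, -0.68 for Yif1b and -0.44 for Nck1 and Dag1.

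The highest S set ratios of siRNA over TGF-b were at windows with 5 to 10 reads in TGF-b. Alg8 (ENSMUSG00000035704, chr7:97020755-97020919), a glucosyltransferase of N-glycan assembly, held 5 reads in TGF-b against 25 in TGF-b with siRNA (log2 ratio 2.21, interval 1.07 to 3.75). Ndufs6 (ENSMUSG00000021606, chr13:73476583-73476721), a subunit of respiratory complex I, held 6 reads in TGF-b against 27 in TGF-b with siRNA (log2 ratio 2.08, interval 1.01 to 3.49). Mettl17 (ENSMUSG00000004561, chr14:52122249-52122367), of mitochondrial ribosome assembly, held 9 reads in TGF-b against 31 in TGF-b with siRNA (log2 ratio 1.75, interval 0.80 to 2.9). At these 3 genes the region was centred within 24 bp of the TSS. Vps35l (ENSMUSG00000030982, chr7:118339558-118339632), of the Retriever endosomal recycling complex, held 8 reads in TGF-b against 25 in TGF-b with siRNA (log2 ratio 1.61, interval 0.60 to 2.84). Ntan1 (ENSMUSG00000022681, chr16:13637032-13637212), an amidase of the N-degron pathway, held 10 reads in TGF-b against 31 in TGF-b with siRNA (log2 ratio 1.61, interval 0.69 to 2.7).

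The lowest ratios were at Kcnq1 (ENSMUSG00000009545, chr7:142660261-142660410), a cardiac potassium channel, which held 34 reads in TGF-b against 5 in TGF-b with siRNA (log2 ratio -2.46, interval -3.99 to -1.38). Lrp1b (ENSMUSG00000049252, chr2:42542823-42542962), a large lipoprotein receptor relative, held 44 reads in TGF-b against 7 in TGF-b with siRNA (log2 ratio -2.43, interval -3.71 to -1.47), although the region was called with siRNA only. Kctd20 (ENSMUSG00000005936, chr17:29171301-29171499) held 30 reads in TGF-b against 5 in TGF-b with siRNA (log2 ratio -2.28, interval -3.82 to -1.18). In NC, Kcnq1 held 9 reads and Kctd20 4, so TGF-b stood above both other libraries. Wnt7a (ENSMUSG00000030093, chr6:91388035-91388214), a Wnt ligand, held 29 reads in TGF-b against 5 in TGF-b with siRNA (log2 ratio -2.24, interval -3.77 to -1.13), with 6 reads in NC. Ptchd3 (ENSMUSG00000039198, chr11:121720955-121721272), of the patched family, held 43 reads in TGF-b against 8 in TGF-b with siRNA (log2 ratio -2.23, interval -3.43 to -1.3), with 13 in NC.

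At regions listed in both tables of a set, the 3 libraries can be read side by side. The T set had 1232 such 5' UTR regions, with a median of 17 NC reads, 25 TGF-b reads and 11 reads with siRNA, and the S set 591, with 9, 21 and 16. Of these, 1166 and 557 had been called in the TGF-b library in both tables, which favours high TGF-b reads in this selection. Densities of separate tables were not compared at these regions, since each was normalized on its own, and reads are not scaled to library size.

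Lists of genes were then followed at 5' UTR regions, which 11.7% of the 26759 genes with a region of any annotation had. Each count below stands beside the 25.9% higher and 11.7% lower of all 5' UTR regions in the T set for TGF-b over NC and the 14.7% and 28.3% for siRNA over TGF-b. The S set shares were 28.3% and 5.59%, then 12.1% and 11.2%. Centring on the median of all regions turned the sign of 7 of the 56 list medians and leaving out the authors' line that of 4, and these are named where they occur. Of 20 myofibroblast and matrix genes with a region of any annotation, 10 had one in a 5' UTR, and 7 regions of 7 genes were in the T set table of TGF-b over NC, with a median log2 ratio of 0.24, 2 of them at least 2-fold higher and 1 lower. Col5a2, of fibrillar collagen V, held 3 and 18 reads (log2 ratio 2.38, interval 1.05 to 4.38) and Col1a1, of collagen I, 12 and 24 reads (log2 ratio 1.01, interval 0.08 to 2.04). Tnc, the matricellular tenascin C, held 54 and 21 reads (log2 ratio -1.32, interval -2.08 to -0.64), and stood at -0.67 when centred. With siRNA over TGF-b the 5 regions had a median of -0.98, with none higher and 2 lower by 2-fold. Col1a1 held 24 and 6 reads (log2 ratio -1.37, interval -2.79 to -0.29) there and Col5a2 18 and 6 reads (log2 ratio -0.98, interval -2.41 to 0.17). In the S set the list had 2 regions for siRNA over TGF-b, with a median of -0.08, or 0.13 when centred.

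SRF targets had 6 regions of 5 genes in the T set for TGF-b over NC, with a median of 0.02, 1 higher and 0 lower by 2-fold. A pair of them belongs to Egr1, with overlapping windows and ratios of 0.00 and 0.07. Fhl2, a LIM-domain coactivator, held 13 and 28 reads (log2 ratio 1.1, interval 0.23 to 2.09). Tpm1, tropomyosin 1, held 42 and 24 reads (log2 ratio -0.77, interval -1.51 to -0.08), and stood at -0.12 when centred. The 4 regions of the siRNA table had a median of -0.82, with 0 higher and 2 lower, namely Acta2, a region called with siRNA only, and Egr1. Acta2 is also counted among myofibroblast and matrix genes and Egr1 among immediate early genes. Egr1, an early growth response factor, held 71 and 22 reads (log2 ratio -1.17, interval -1.89 to -0.53). In the S set, where the target is read as SRF, the single SRF target listed was Zyx, zyxin of focal adhesions, with 24 and 46 reads (log2 ratio 0.38, interval -0.30 to 1.11) for TGF-b over NC and 46 and 36 reads (log2 ratio -0.33, interval -0.96 to 0.29) for siRNA over TGF-b. Of 27 SRF targets with a region of any annotation, 6 had one in a 5' UTR.

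YAP/TAZ targets had 4 regions of 3 genes in the T set for TGF-b over NC, with a median of 0.70, 2 higher and 0 lower by 2-fold. Both higher regions were in Amotl1, an angiomotin relative that binds YAP and TAZ, with 9 and 22 reads (log2 ratio 1.28, interval 0.28 to 2.46) at one and 9 and 19 reads (log2 ratio 1.09, interval 0.05 to 2.28) at the other. Their windows overlap, and the latter region was called in NC only. Amotl2, of the same family, held 64 and 84 reads (log2 ratio 0.32, interval -0.14 to 0.79). Igfbp3 went the other way, with 15 and 8 reads (log2 ratio -0.73, interval -2.01 to 0.4). The median of 3 regions for siRNA over TGF-b was -0.97, with 0 higher and 1 lower. Amotl1 held 22 and 2 reads (log2 ratio -2.48, interval -4.94 to -1.06) and Amotl2 84 and 30 reads (log2 ratio -0.97, interval -1.6 to -0.41), whereas Igfbp3 held 8 and 6 reads (log2 ratio 0.09, interval -1.42 to 1.5). No YAP/TAZ target of the list had a 5' UTR region in the S set.

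TGF-b signalling genes had 3 regions for TGF-b over NC in the T set, with a median of 0.78, 1 higher and 0 lower, and 7 for siRNA over TGF-b, with a median of 0.16, 1 higher and 1 lower, a median that was -0.81 when centred and -0.30 without the line. Smad2, a receptor-activated effector of the pathway, held 18 and 68 reads (log2 ratio 1.86, interval 1.18 to 2.66) and 68 and 17 reads (log2 ratio -1.46, interval -2.28 to -0.76). Bambi, a pseudoreceptor that dampens the pathway, held 35 and 20 reads (log2 ratio -0.75, interval -1.56 to 0.00) and 20 and 16 reads (log2 ratio 0.16, interval -0.79 to 1.08). Tgfbr2, the type II receptor, held 17 and 29 reads (log2 ratio 0.78, interval -0.04 to 1.66) and 29 and 20 reads (log2 ratio -0.04, interval -0.87 to 0.75). Of a pair of regions at the ligand gene Tgfb1, one held 27 and 52 reads (log2 ratio 1.4, interval 0.76 to 2.09) with siRNA, the one higher region of the list, and its ratio was 0.43 when centred and 0.92 without the line, both under 2-fold. Immediate early genes had 4 regions of 3 genes, the Egr1 pair among them, with a median of 0.04 (1 higher, 0 lower) and 3 with a median of -1.17 (0 higher, 2 lower). Fosl2, an AP-1 subunit, held 33 and 79 reads (log2 ratio 1.2, interval 0.64 to 1.81) and then 79 and 16 reads (log2 ratio -1.76, interval -2.59 to -1.06), and centring moved these to 1.85 and -2.73. Ier2 held 17 and 9 reads (log2 ratio -0.76, interval -1.96 to 0.31) for TGF-b over NC, and Klf6, a zinc finger factor, 45 and 49 reads (log2 ratio 0.60, interval 0.03 to 1.19) with siRNA, a ratio of -0.37 when centred and 0.12 without the line. Neither list had a 5' UTR region in the S set.

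Focal adhesion and integrin genes had the lowest list median in the T set for TGF-b over NC, -1.46 over 4 regions, with 0 higher and 3 lower by 2-fold, and -0.81 when centred. Itga3, an integrin chain, held 22 and 5 reads (log2 ratio -1.84, interval -3.39 to -0.68). Fermt2, kindlin-2, held 47 and 13 reads (log2 ratio -1.75, interval -2.7 to -0.95). Lims1, PINCH-1, held 16 and 6 reads (log2 ratio -1.17, interval -2.61 to 0.00), and Itga5, a fibronectin receptor chain, 20 and 26 reads (log2 ratio 0.40, interval -0.41 to 1.25). Of these only Itga5 was listed for siRNA over TGF-b (26 and 12 reads), and in the S set the list held Zyx alone. With 4 regions, no difference of this list from the rest was tested.

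Cell cycle genes had a median of 1.49 over 4 T set regions for TGF-b over NC, 3 higher and 0 lower, and of -0.57 over 6 regions for siRNA over TGF-b, 0 higher and 1 lower. The 3 higher were Cdkn2c and Cdkn1b, inhibitors of cyclin-dependent kinases, with 3 and 20 reads (log2 ratio 2.52, interval 1.2 to 4.52) and 9 and 26 reads (log2 ratio 1.51, interval 0.53 to 2.67), and Ccnd3, cyclin D3, with 6 and 17 reads (log2 ratio 1.47, interval 0.31 to 2.91). With siRNA, Ccnd3 held 0 reads against 17 in TGF-b. Ccna2, cyclin A2 of S phase and mitosis, was the one member listed in all 4 tables. In the T set it held 28 NC reads, 50 TGF-b reads and 18 reads with siRNA, at ratios of 0.81 (0.17 to 1.49) and -0.95 (-1.77 to -0.23), and in the S set 10, 41 and 18, at 1.38 (0.51 to 2.47) and -1.10 (-1.94 to -0.36). TGF-b was the highest library in both sets.

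Of 32 respiratory chain genes with a region, 10 had one in a 5' UTR. Respiratory chain genes had 8 regions in the T set for TGF-b over NC (median 0.71, 3 higher, 0 lower) and 6 for siRNA over TGF-b (median -1.32, 0 higher, 3 lower). Sdhb, of complex II, held 33 and 46 reads (log2 ratio 0.46, interval -0.17 to 1.11) and then 46 and 4 reads (log2 ratio -2.77, interval -4.47 to -1.64). Cox7a2, of complex IV, held 7 and 19 reads (log2 ratio 1.42, interval 0.32 to 2.75) and then 19 and 2 reads (log2 ratio -2.28, interval -4.74 to -0.84). Its S set regions numbered 4 (median 0.82, 2 higher, 0 lower) and 5 (median -0.11, or 0.11 when centred, 0 higher, 0 lower). The list does not hold Ndufs6, whose S set log2 ratios were -1.68 for TGF-b over NC and 2.08 for siRNA over TGF-b. Atp5f1c, of the ATP synthase, held 1 and 16 reads (log2 ratio 2.49, interval 0.84 to 5.97) and then 16 and 14 reads (log2 ratio -0.11, interval -1.13 to 0.90), and in the T set 10 and 26 reads (log2 ratio 1.36, interval 0.42 to 2.48) and then 26 and 5 reads (log2 ratio -1.71, interval -3.25 to -0.58).

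Chaperones had 4 T set regions (median 0.74, 2 higher, 0 lower) and 5 with siRNA (median 0.01, or -0.96 when centred and -0.47 without the line, 0 higher, 1 lower), and 4 and 4 in the S set (medians 1.01 and 0.19, with 2 higher and 0 lower, then 0 and 0). Hspa8, the constitutive Hsp70, held 31 and 67 reads (log2 ratio 1.07, interval 0.48 to 1.7) in the T set and 8 and 32 reads (log2 ratio 1.32, interval 0.35 to 2.53) in the S set for TGF-b over NC. With siRNA the pair of libraries held 67 and 73 reads (log2 ratio 0.61, interval 0.14 to 1.09) and 32 and 22 reads (log2 ratio -0.48, interval -1.27 to 0.27). Hsph1, an Hsp110 chaperone, held 40 and 47 reads (log2 ratio 0.71, interval 0.11 to 1.32) for siRNA over TGF-b in the T set. The T set ratios of Hspa8 and Hsph1 with siRNA lay above 0 where the median 5' UTR region lay at -0.30, and below 0 when centred (-0.36 and -0.26).

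Splicing and RNA-binding genes had medians of 0.65 (3 regions, 0 higher, 0 lower) and -1.42 (4 regions, 0 higher, 3 lower) in the T set and of 0.57 (2 regions, 1 higher, 0 lower) and -1.24 (2 regions, 0 higher, 1 lower) in the S set. Hnrnph1 held 46 and 8 reads (log2 ratio -1.92, interval -3.11 to -0.99) for siRNA over TGF-b in the T set, although the region was called with siRNA only, and Sf3b1, of the U2 snRNP, 16 and 4 reads (log2 ratio -1.66, interval -3.4 to -0.38) in the S set. Translation factors had medians of 0.32 (4 regions, 0 higher, 1 lower) and -1.11 (4 regions, 0 higher, 2 lower) in the T set and a single S set region. Eif4e, the cap-binding factor, held 27 and 38 reads (log2 ratio 0.49, interval -0.20 to 1.21) and then 38 and 6 reads (log2 ratio -2.01, interval -3.4 to -0.99). The one S set region, of Eif1, held 31 and 31 reads (log2 ratio 0.03, interval -0.68 to 0.74).

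Ribosomal proteins had 3 regions in each T set table (medians 0.19 and -0.23, with 1 higher and 0 lower, then 0 and 0), and 1 and 2 in the S set (1.27, higher, and a median of 0.00, or -0.05 without the line). Rpl35 held 9 and 30 reads (log2 ratio 1.7, interval 0.75 to 2.85) in the T set. Proteasome subunits had 5 regions in each T set table (medians 0.47 and -0.63, with 0 higher and 0 lower, then 0 and 1), and 1 and 2 in the S set (-0.20, or 0.36 without the line, and a median of 0.76, with 1 higher). Psmd8 held 25 and 47 reads (log2 ratio 0.89, interval 0.22 to 1.61) and then 47 and 21 reads (log2 ratio -0.65, interval -1.42 to 0.05) in the T set, and 13 and 17 reads (log2 ratio -0.20, interval -1.19 to 0.85) and then 17 and 36 reads (log2 ratio 1.08, interval 0.31 to 1.95) in the S set. The Ragulator and mTOR list had 3 regions (median 1.35, 2 higher, 0 lower) and 2 (median -1.0, 0 higher, 1 lower) in the T set, plus 1 of the S set siRNA table (1.01, Lamtor4). Lamtor2, of the same complex as Lamtor4, held 18 and 47 reads (log2 ratio 1.35, interval 0.63 to 2.18) and then 47 and 18 reads (log2 ratio -0.86, interval -1.68 to -0.13).

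Markers of the cells were sparse at 5' UTR regions, and chromatin association does not measure transcripts, so the label of fibroblasts could not be checked here. Of 10 cardiac fibroblast markers with a region of any annotation 3 had one in a 5' UTR, Lum, Col1a1 and Gsn. In the T set the fibroblast median was -0.40, or 0.26 when centred, over 2 regions (1 higher, 1 lower) for TGF-b over NC and -1.37 over 1 for siRNA over TGF-b, and in the S set 0.26 over 1 for siRNA over TGF-b. Lum held 7 and 1 reads (log2 ratio -1.8, interval -5.25 to 0.03). Of 13 cardiomyocyte markers 3 had one, of 10 endothelial markers 1, and of 8 macrophage markers 1. Cardiomyocyte genes had a median of -0.62, or 0.03 when centred (2 regions, 0 higher, 0 lower), with Myh7 at 18 and 9 reads, and Pln held 1 and 8 reads (log2 ratio 2.33, interval 0.53 to 5.78) in the S set. The endothelial gene Esam stood at 0.70 and, at both of its regions in the siRNA table, at 0.69, or -0.29 when centred. The macrophage receptor gene Csf1r held 24 and 8 reads (log2 ratio -1.39, interval -2.63 to -0.38), and stood at -0.74 when centred. The part of other cell types in the results was not tested.

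The sets were then compared at 5' UTR regions that overlapped by at least 1 bp. For TGF-b over NC there were 179 such pairs, holding 9.38% of the T set regions and 24.9% of the S set regions. Overlap with a T set region of any annotation was found for 56.2% of the S set 5' UTR regions and for 12.7% of all S set regions, and overlap in the other direction for 19.1% and 3.98%. The contrast of siRNA over TGF-b gave 257 pairs, 13.9% and 25% of the 5' UTR regions, with 55.2% against 15.9% and 29.0% against 4.69% for regions of any annotation. Overlap between the sets was thus more frequent at 5' UTR regions than over the tables.

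The size of the ratio did not go together between sets. Over the 179 pairs the median ratio of TGF-b over NC was 0.52 for the T set regions and 0.50 for their S set partners, and Pearson's r across pairs was 0.06 (Spearman's rho 0.09). Over the 257 pairs the medians for siRNA over TGF-b were -0.48 and 0.14, with r of -0.03 and rho of -0.07. Pairs are regions of single libraries and share depth and position, so these values are descriptions. For TGF-b over NC, 17 pairs were at least 2-fold higher in both sets and 1 lower in both, while 5 were 2-fold apart in opposite directions. Over the same pairs 53 T set regions and 50 S set regions were at least 2-fold higher, and 9 and 7 lower. For siRNA over TGF-b, 2 were higher in both, 2 lower in both, 9 lower in the T set and higher in the S set, and 1 the reverse, while 66 T set regions were lower and 8 higher and 12 S set regions were lower and 29 higher. No association between the sets is read from these counts.

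The counting intervals of both sets lay above 0 in 21 pairs for TGF-b over NC and below 0 in 1. How many lay off 0 in each set alone was not tallied, so no association is read from these counts either. The examples that follow were chosen after their values were seen. Grk6, a kinase of G protein-coupled receptors, held 22 and 89 reads in the T set (log2 ratio 1.95, interval 1.33 to 2.66) and 5 and 28 in the S set (1.71, 0.59 to 3.24). Fasn, the fatty acid synthase, held 9 and 61 reads in the T set (log2 ratio 2.67, interval 1.81 to 3.79) and 8 and 35 in the S set (1.44, 0.49 to 2.66). Mark2, a kinase of cell polarity, held 5 and 37 reads in the T set (log2 ratio 2.74, interval 1.67 to 4.27) and 7 and 26 in the S set (1.19, 0.16 to 2.5). Each held fewer than 10 NC reads in the S set. Aco1, the cytosolic aconitase and iron regulatory protein, held 53 and 117 reads in the T set (log2 ratio 1.06, interval 0.61 to 1.54) and 11 and 53 in the S set (1.63, 0.81 to 2.65). Ppp1cb, a catalytic subunit of protein phosphatase 1, held 41 and 98 reads in the T set (log2 ratio 1.19, interval 0.68 to 1.73) and 9 and 43 in the S set (1.59, 0.69 to 2.72). The pair below 0 in both was Zfp90, a zinc finger gene, with 54 and 14 reads in the T set (log2 ratio -1.85, interval -2.76 to -1.09) and 32 and 26 in the S set (-0.83, -1.57 to -0.10). Intervals on opposite sides were found at Ndufs6, Rab3b, a vesicle GTPase, and Sdhaf1, an assembly factor of complex II. Rab3b held 19 and 6 reads in the T set (log2 ratio -1.41, interval -2.84 to -0.28) and 5 and 24 in the S set (1.49, 0.35 to 3.03), and Sdhaf1 20 and 52 reads in the T set (log2 ratio 1.34, interval 0.65 to 2.12) and 17 and 11 in the S set (-1.15, -2.26 to -0.12). These calls depended on the scaling, since of the 3 only Ndufs6 kept opposite sides when centred and only Rab3b without the authors' line, and Zfp90 kept its call under neither. The 21 pairs above 0 in both sets were above 0 in both under either scaling. Centring raises every ratio of this contrast in both sets, so it could not lose the 21 and could only work against Zfp90.

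For siRNA over TGF-b the intervals lay above 0 in both sets in 1 pair, below 0 in 4 and on opposite sides in 15. The numbers of each set alone were not tallied here either, and no association is read from these counts. The 4 were Mmp24os1, Ccna2, Zpbp2 and Abcb10. Abcb10, a mitochondrial transporter, held 45 and 13 reads in the T set (log2 ratio -1.24, interval -2.2 to -0.44) and 28 and 11 in the S set (-1.21, -2.27 to -0.30). Of the 15, 11 were lower in the T set and higher in the S set, chosen for description after their values were seen. They included the ribonucleotide reductase subunit Rrm1, with 39 and 12 reads in the T set (log2 ratio -1.15, interval -2.15 to -0.31) and 5 and 17 in the S set (1.69, 0.48 to 3.25), and deoxycytidine kinase Dck, with 82 and 20 reads in the T set (log2 ratio -1.5, interval -2.25 to -0.86) and 21 and 35 in the S set (0.75, 0.01 to 1.55), both of deoxynucleotide supply. Nupr1, a stress-induced chromatin protein, held 40 and 6 reads in the T set (log2 ratio -2.08, interval -3.47 to -1.07) and 5 and 13 in the S set (1.33, 0.06 to 2.92). The other 4 ran the opposite way, among them Tmem120a with 17 and 30 reads in the T set (log2 ratio 1.26, interval 0.44 to 2.14) and 32 and 14 in the S set (-1.08, -2.03 to -0.25). None of these 4 kept opposite sides when centred or without the line. The 11 lower in the T set all did when centred, and 8 of them without the line, the exceptions being Acad9, Dck and Nupr1. Centring lowers every T set ratio of this contrast and raises every S set one. The 11 therefore could not fail it, and it is no check of them. Of the 4 pairs below 0 in both sets, Ccna2 and Abcb10 remained so when centred and all 4 without the line, and the pair above 0 in both was lost under either. Whether the sets differ at any of these regions could not be tested with 1 library per group, and the sets differ in the siRNA named by their labels as well as in the antibody, which cannot be told apart.

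**Figure D5:**
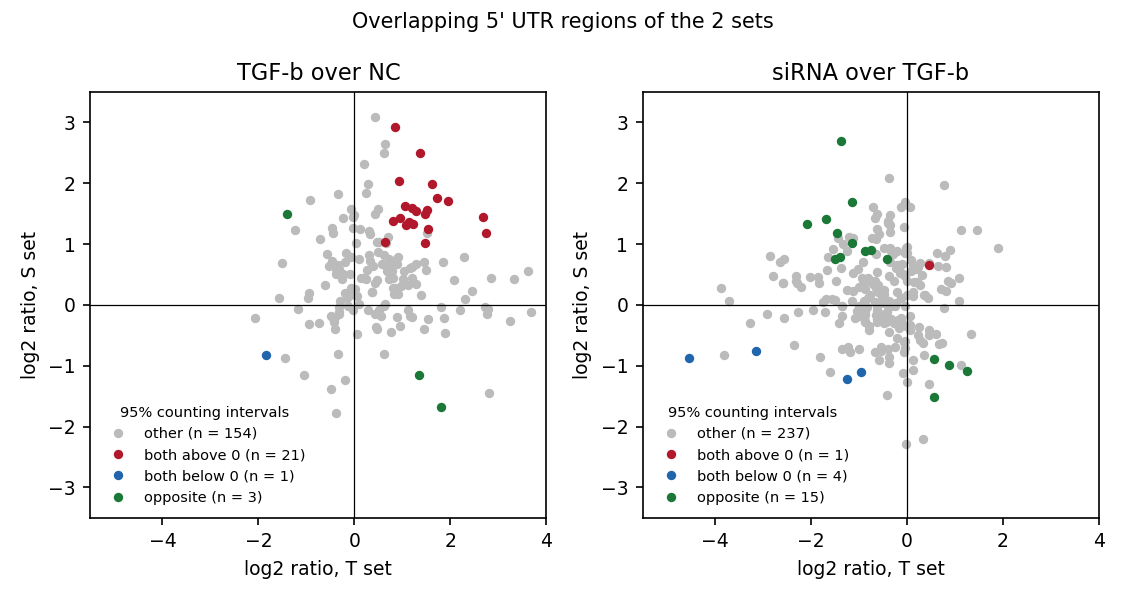
Log2 ratios of overlapping 5' UTR regions in the T set (horizontal) and the S set (vertical), for TGF-b over NC (179 pairs) and siRNA over TGF-b (257 pairs), coloured by whether the 95% counting intervals of both sets exclude 0. For TGF-b over NC 21 pairs lie above 0 in both sets, and for siRNA over TGF-b 15 lie on opposite sides.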

How the data were processed

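The 6 CUT&Tag libraries (1 per group) came from primary mouse cardiac fibroblasts. The methods of the study name GRCm39, Bowtie2 for mapping and Masc2 for peaks, while the submitters' processing notes name BWA 0.7.12 and mm10. Gene boundaries in the tables equalled those of a GRCm38 annotation for 1.71% to 2.56% of 5' UTR regions, so coordinates are given as GRCm39. Versions of Bowtie2 and the peak caller are not given in the sources used here, and a spike-in the methods describe was not used here. The unit of the deposited tables is a signal, the normalized read density of (reads + 1) per 2 kb window, at 0.5 per read, rescaled by the authors along a line in mean log2 density. Undoing that line gave whole reads within 0.1 in 99.97% to 99.99% of regions and in every 5' UTR region. Densities were not scaled to library size and total depth is unknown. Columns of the authors' own comparisons (fold changes and p-values) were not used.

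5' UTR regions were taken from the deposited annotation, and the log2 ratio from the 2 densities of a table. Regions past 2-fold were counted and given beside the share of all regions. Shares carry Wilson 95% intervals, and the interval of a region's log2 ratio comes from the Wilson interval of the later library's share of its reads. PCR duplicates are not independent molecules, so intervals of ratios cover counting error only. Those of shares count regions as independent draws, although regions of 1 gene share reads. A library at 0 reads was set to a floor of 3 for a fold. Regions were joined by 1 bp of overlap. The genes named were, per comparison, the 5 highest and 5 lowest ratios among 5' UTR regions with 30 or more reads (1 region per gene), per set the 5 densest, and members of 18 gene lists with such a region. Some of these are not reported here. List members with fewer reads, and regions shared between sets, were added after their values were seen. The members and lists were chosen with earlier results of these data known. Alternatives were centring on the median of all regions, no line, 30 or more reads, 1 region per gene, regions within 1 kb of the TSS, and 4-fold. Setting reads of 3 or fewer to 3 was chosen after seeing the data. Recovery of reads was tested on simulated data. Python 3.11.15, numpy 2.4.6, pandas 2.3.3 and scipy 1.17.1 were used.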

Additional observations from a re-analysis of the deposited data

Results flagged for a closer look

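At 18 pairs of overlapping 5' UTR regions, 3 for TGF-b over NC and 15 for siRNA over TGF-b, the T set and the S set had counting intervals on opposite sides of 0 under the same contrast. The difference was not tested, since each group holds 1 library. Of the 18, 12 kept opposite sides when centred on the median of all regions and 9 without the authors' line. For siRNA over TGF-b, centring lowers T set ratios and raises S set ones, so pairs lower in the T set could not fail. How many intervals lay off 0 in each set alone was not tallied. For TGF-b over NC, Ndufs6 had a log2 ratio of 1.81 in the T set (6 reads in NC and 22 in TGF-b) and of -1.68 in the S set (14 and 6), a difference of 3.49. Rab3b differed by -2.9 (T set minus S set) and Sdhaf1 by 2.49.

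For siRNA over TGF-b, Pwwp3a had -0.41 in the T set (158 reads in TGF-b and 84 with siRNA) and 0.75 in the S set (32 and 54), a difference of -1.16. Lamtor4 had -1.14 in the T set (45 and 14) and 1.01 in the S set (12 and 24), a difference of -2.15. The log2 ratio was also lower in the T set at Leng1 (a difference of -4.05, from 31 and 8 reads in the T set and 3 and 23 in the S set), Nupr1 (-3.41), Psph (-3.09), Rrm1 (-2.84), Acad9 (-2.63), Dck (-2.25), Yipf6 (-2.19), Cldnd1 (-1.75) and Ikbip (-1.66). It was higher there at Tmem120a (2.34), Cfap97d1 (2.08), Wiz (1.86) and Armh1 (1.45).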

How the results depend on the processing

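No paired analysis was possible because each group holds 1 library, and no library could be left out. Values follow the order T set TGF-b over NC, T set siRNA over TGF-b, S set TGF-b over NC, S set siRNA over TGF-b. With all regions centred on their median, 5' UTR regions had a median log2 ratio of 0.95, -1.27, 0.65 and 0.20, against 0.30, -0.30, 0.45 and -0.01 as reported, so only the last changed sign. Counts past 2-fold were then 905 higher and 118 lower in the first, 92 and 1101 in the second, and 193 higher in the last. Without the authors' line the medians of the last 3 were -0.77, 1.0 and -0.05, with 177 higher and 784 lower in the second and 387 and 17 in the third. Among regions with 30 or more reads, 272 were higher and 77 lower, 79 and 239, 96 and 3, and 44 and 50. At 4-fold they were 164 and 75, 90 and 203, 32 and 7, and 20 and 26. Using 1 region per gene, only regions within 1 kb of the TSS, or reads of 3 or fewer set to 3 moved no count by over 1.5 times. For pairs of T set and S set regions, an alternative chosen after seeing the data, intervals lay above 0 in both sets in 48 pairs (centred) and 45 (no line) for TGF-b over NC, below 0 in 0 and 0, and on opposite sides in 2 and 5. For siRNA over TGF-b they lay above 0 in 0 and 0, below 0 in 5 and 8, and on opposite sides in 52 and 20. The highest and lowest ratios, and list members past 2-fold with 30 or more reads, made up 75 regions. Of these 75, centring moved 8 beyond their counting interval (for siRNA over TGF-b in the T set Mapk3 to 1.27, Egr1 to -2.14, Smad2 to -2.43, Tgfb1 to 0.43, Fosl2 to -2.73 and Lamtor4 to -2.11, and for TGF-b over NC Fosl2 to 1.85 and Hspa8 to 1.72), and leaving out the line moved none of the 75 so far. The densest regions and list members under 2-fold were not among them. At the 5 densest T set regions, either scaling moved the ratio of siRNA over TGF-b beyond its interval. Centring also moved some list members under 2-fold so far, such as Klf6 to -0.37 in that table. Depth limits the ratio of single regions: 11.5% to 19.6% of 5' UTR regions in 3 of the tables, and 4.79% in the S set siRNA table, held 3 or fewer reads in a library.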
